A study of Mus musculus with 6 samples.

Results

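The 6 livers of this study separated into 3 with a low and 3 with a high signal of Nr1d1, the gene of the nuclear receptor REV-ERB alpha, and these groups of livers are compared here across all measured genes. The split was made from the data. For each liver the log2 signals of the 7 probe sets of Nr1d1 with a mean of 3 or more over all livers were averaged, and livers under 9.5 formed the low group, so the members were chosen by the signal of this gene alone. The low-Nr1d1 livers were control 1, mutant 1 and mutant 2, and the high-Nr1d1 livers were control 2, control 3 and mutant 3, so that all 6 of 6 livers were used and each group held both genotypes. The liver just under the threshold was control 1 (9.13) and the one just above it was mutant 3 (10.50). Because Nr1d1 chose the groups, its difference and that of any other gene between them is a description and carries no p-value.

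The samples were livers of male mice 6 to 8 weeks old, of which 3 were controls, labelled wild type, and 3 carried a homozygous mutation of Dhx32, which belongs to the DEAH-box RNA helicases. The mice carried no treatment in the labels. RNA of each snap-frozen liver was hybridised to 1 Affymetrix exon array, which carries separate probe sets for the exons of a gene. The nature of the mutation, the background strain, and the time of day, feeding state and order of tissue collection are not given in the sources used here.

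Nr1d1 is both a part and an output of the circadian clock. In liver, the transcription factors BMAL1 (gene Arntl) and CLOCK bind E-box sequences and switch on the Per, Cry and Nr1d genes. PER and CRY proteins then block BMAL1 and CLOCK, while REV-ERB proteins repress Arntl and other genes through the sites that the activating ROR receptors also bind. Dbp, Tef and Hlf, of the PAR bZIP family, carry the rhythm on to metabolic genes by binding D-boxes, where NFIL3 represses. Transcripts of the groups peak at different times of day, Arntl and Npas2 roughly opposite to Nr1d1 and Dbp.

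The sequences below show such elements in the 250 bases before the start of some clock genes. Genes with large differences between the groups, Dbp, Rgs16, Nr1d2, Usp2 and Upp2, held no match to any motif sought in this window. Nfil3 is shown although its groups overlapped. They come from RefSeq on build GRCm38.p6 and run 5′ to 3′ on the strand of the gene, with the matched motif in capitals and up to 30 bases on each side. Motifs were sought on both strands, so that a capital run may be the reverse complement of the letters given here.
Nr1d1, E-prime box (CACGTT), chr11:98775378-98775435, minus strand: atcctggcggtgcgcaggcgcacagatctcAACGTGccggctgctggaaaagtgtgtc
Per1, E-box (CACGTG), chr11:69098753-69098818, plus strand: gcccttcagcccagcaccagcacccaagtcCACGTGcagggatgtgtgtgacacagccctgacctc
Per1, D-box (TTATGNAA), chr11:69098895-69098948, plus strand: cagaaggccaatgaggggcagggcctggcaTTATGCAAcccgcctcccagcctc
Per3, D-box (TTATGNAA), chr4:151044833-151044900, minus strand: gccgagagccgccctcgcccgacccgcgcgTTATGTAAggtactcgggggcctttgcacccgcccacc
Tef, E-box (CACGTG), chr15:81802516-81802581, plus strand: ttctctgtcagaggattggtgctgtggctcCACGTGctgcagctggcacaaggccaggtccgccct
Cry1, E-box (CACGTG), chr10:85185079-85185144, minus strand: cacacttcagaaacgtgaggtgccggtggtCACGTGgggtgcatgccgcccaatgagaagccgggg
Nfil3, receptor core site (TAGGTCA), chr13:52981040-52981081, minus strand: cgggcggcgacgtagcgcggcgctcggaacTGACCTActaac

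Of the 53 measured clock and clock output genes, 42 had a promoter among those searched in the RefSeq table. Promoters of 1 chromosome were passed over for these genes, but not for the shares over all promoters. Of the 42 genes, 7 held the E-box within this window, 5 the E-prime box, 5 the D-box, 2 the receptor core site TAGGTCA and 1 the core site TGGGTCA. Among all 32851 promoters of the table, each counted singly, 6.02% held the E-box, 3.85% the E-prime box, 3.07% the D-box, 2.23% TAGGTCA and 3.24% TGGGTCA. Counted by gene, as for the clock genes, 1854 of 27025 held the E-box, 1215 the E-prime box, 981 the D-box, 689 TAGGTCA and 1009 TGGGTCA. The E-box and the E-prime box differ in their last base, so that 1 position cannot match both, and the core sites can be part of longer elements. A match describes the letters in this window and is not a site of binding measured here.

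All values are log2 signals, and a difference is the mean of the low-Nr1d1 livers minus the mean of the high-Nr1d1 livers. The value of a gene is the mean over its probe sets, and 14983 genes had at least 2. In each sentence of values below, the low-Nr1d1 livers come in the order control 1, mutant 1, mutant 2, and the high-Nr1d1 livers in the order control 2, control 3, mutant 3. The array medians ran from 6.73 to 6.95, with the 3 lowest in the low-Nr1d1 livers, and over all genes the median difference was -0.07. It became 0.07 with each array centred on its median and 0.04 after quantile normalization, shifts of 0.14 and 0.11, so a difference nearer to 0 than these has no settled sign. Mutant 1 stood apart from the other livers, with correlations of 0.935 to 0.940 with them over all probe sets, against 0.960 to 0.973 among the other 5. The pair most alike of all was control 1 with mutant 2, both low-Nr1d1 livers of different genotype. Dhx32 read 8.28, 8.85 and 8.62 in controls 1 to 3 and 6.35, 6.60 and 7.04 in mutants 1 to 3, so every mutant lay under every control. Hepatocyte markers were bright in every liver, with albumin (Alb) between 13.64 and 14.05 and Hnf4a, a transcription factor of hepatocytes, between 10.94 and 11.75 in the 6 livers.

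Nr1d1 read 9.13, 7.30 and 8.14 in the low-Nr1d1 livers and 10.91, 10.66 and 10.50 in the high-Nr1d1 livers. The high group lay close together (10.69 ± 0.20, SD, n = 3) and the low group spread widely (8.19 ± 0.92, SD, n = 3), with mutant 1 lowest. The difference of -2.50 made the signal 5.65-fold lower in the low group, and it was -2.05 without mutant 1. All 7 probe sets separated the groups, with differences from -3.02 to -1.99, but their mean made the groups, so nothing is read from this. The gene Thra, which encodes a thyroid hormone receptor and overlaps the end of Nr1d1 on the opposite strand, read 7.29, 6.69 and 7.04 against 7.59, 7.48 and 7.24. Its groups overlapped and its difference was -0.43.

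Dbp, the other gene that marks the split, read 7.29, 6.90 and 6.91 in the low-Nr1d1 livers and 8.93, 8.71 and 8.74 in the high-Nr1d1 livers. No low-Nr1d1 liver reached a high-Nr1d1 liver, and Dbp was 3.39-fold lower in the low group (7.03 ± 0.22 against 8.79 ± 0.12, SD, n = 3). Of its 10 probe sets 9 separated the groups in the same direction, and the remaining one was flat near the same bright level in all livers, with a difference of 0.19. Rgs16, which encodes a brake on G protein signalling and is known to be rhythmic in liver, had the largest difference of all 14983 genes. It read 6.05, 6.17 and 6.76 against 11.37, 10.91 and 10.06, which is 21.9-fold lower. All 7 of its probe sets separated the groups, the one with the smallest difference by -2.13 and the one with the largest by -6.68.

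**Figure D1:**
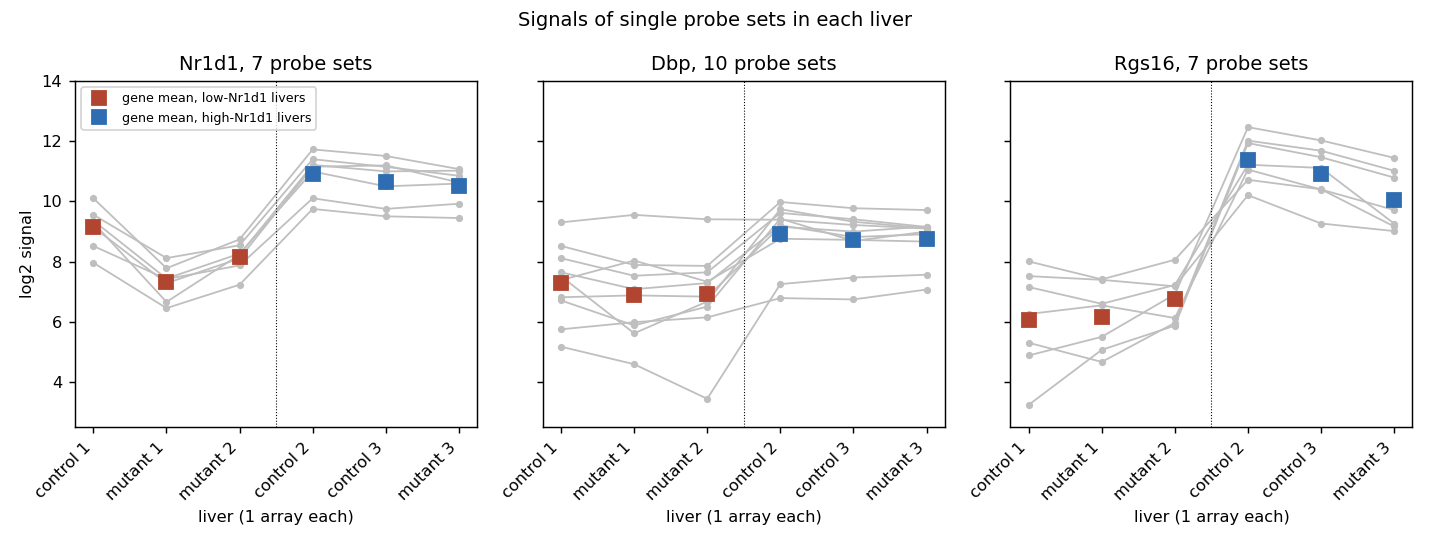
Log2 signal (vertical axis) of each probe set (grey lines) of Nr1d1, Dbp and Rgs16 in the 6 livers (horizontal axis, 1 array each), with the gene mean as a square, red in low-Nr1d1 and blue in high-Nr1d1 livers. All 7 probe sets of Nr1d1, 9 of 10 of Dbp and all 7 of Rgs16 were lower in every low-Nr1d1 liver than in any high-Nr1d1 liver, and Nr1d1 chose the groups.

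The activators of the clock showed small differences in both directions. Arntl read 8.40, 8.00 and 8.44 in the low-Nr1d1 livers and 8.04, 8.20 and 7.34 in the high-Nr1d1 livers. The groups overlapped, with a difference of 0.42 and mutant 3 the lowest of all livers. Npas2, which can take the place of CLOCK, read 6.24, 6.26 and 6.55 against 6.23, 5.98 and 5.84. Its groups just failed to overlap, with the low-Nr1d1 livers higher by 0.33. Clock itself (8.62 to 9.16 over the 6 livers) overlapped, with a difference of -0.08 that turned to 0.06 on centring. Rora, whose receptor activates through the sites REV-ERB represses, was 1.29-fold lower without overlap (9.24, 9.38 and 9.23 against 9.63, 9.68 and 9.67).

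Among the repressors, 8 of the 9 measured genes had a difference below 0, with a median of -0.67, beside 9013 below 0 and 5970 above 0 of all genes. There was no overlap between low-Nr1d1 and high-Nr1d1 livers for 8 of them, 7 lower and 1 higher in the low-Nr1d1 livers. Over all genes 17.4% were lower and 6.28% higher without overlap, and since Nr1d1 is among the 9 and made the groups, nothing is read from the count. Nr1d2, the gene of REV-ERB beta, read 9.17, 7.98 and 9.07 against 10.05, 10.03 and 10.16, or 2.53-fold lower. As for Nr1d1, mutant 1 was the lowest liver and the high group was tight.

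Per1, which encodes a partner of the CRY proteins and also answers directly to hormones and other signals, read 6.34, 7.44 and 6.55 in the low-Nr1d1 livers and 7.63, 7.84 and 7.73 in the high-Nr1d1 livers. It was 1.94-fold lower without overlap, with mutant 1 near the high group, and the difference was -1.29 without that liver against -0.96 with it. Per3, with D-boxes in its promoter, read 6.31, 5.93 and 6.19 against 6.73, 6.78 and 6.94 and was 1.59-fold lower. Per2 stood apart from its relatives, at 6.88, 6.57 and 6.61 against 6.70, 6.80 and 6.89. These groups overlapped, and the difference of -0.11 turned to 0.03 on centring.

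The 2 cryptochrome genes went in opposite directions. Cry1 read 7.75, 7.73 and 7.54 in the low-Nr1d1 livers and 7.13, 7.21 and 6.98 in the high-Nr1d1 livers, a 1.48-fold higher signal without overlap. It was the one repressor gene that was higher, and its difference was alike within controls (0.58) and within mutants (0.65). Cry2 read 7.80, 7.23 and 7.60 against 8.20, 8.20 and 8.04, a 1.52-fold lower signal without overlap. Both genes also held an E-prime box in the window searched. Bhlhe40 and Bhlhe41 encode the DEC factors, which compete at E-boxes. Bhlhe40 read 8.71, 8.59 and 8.14 against 9.78, 9.85 and 9.69, which is 2.46-fold lower with both groups well apart. Bhlhe41 (5.57, 5.55 and 5.43 against 6.31, 6.45 and 5.62) did not overlap either, but mutant 3 lay only just above the low group. Ciart was not measured.

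The other PAR bZIP factors, Tef and Hlf, followed Dbp, whereas Nfil3, which is grouped with them here, did not. Tef read 8.03, 7.61 and 7.67 against 8.68, 8.74 and 8.49, or 1.82-fold lower, and Hlf read 8.53, 7.92 and 8.37 against 8.72, 8.97 and 8.96, or 1.52-fold lower. Neither gene overlapped between the groups. Nfil3, the repressor at the same D-boxes, read 9.01, 9.74 and 8.38 against 8.57, 8.62 and 8.82. The low-Nr1d1 livers held both the highest and the lowest value, and the difference of 0.38 became 0.03 without mutant 1.

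Of 13 measured kinases, ubiquitin ligases and cofactors of the clock, 11 had a difference below 0 (8 on centring), with a median of -0.23 that was -0.064 without mutant 1. The groups did not overlap in 3 (23.1%, beside 17.4% of all genes lower without overlap), and all were lower in the low-Nr1d1 livers: Ncor1, the corepressor that REV-ERB recruits (1.28-fold), Btrc, a ligase subunit that marks PER proteins for decay (1.28-fold), and Csnk1d, a PER kinase (1.12-fold). The groups of Csnk1d were only 0.002 apart, and its difference was -0.03 on centring. Hdac3, the deacetylase recruited with Ncor1, read 9.63, 8.87 and 9.57 against 9.75, 9.65 and 9.58, and overlapped with mutant 1 alone well below the rest. Sirt1 and Nampt, of the NAD-dependent arm, overlapped with differences of -0.48 and -0.26. Id2, a helix-loop-helix inhibitor, overlapped with a difference of 0.59, and the remaining genes Csnk1e, Fbxl21, Fbxw11, Timeless, Tipin and Nono overlapped with differences from -0.30 to 0.12. Those of Csnk1e, Fbxw11 and Nono turned above 0 on centring.

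Output targets of the clock went in both directions. Of 20 measured, 9 had a difference below 0 and 11 above, with a median of 0.07 that ranged from -0.20 to 0.22 over the alternatives and was -0.09 without mutant 1. The mean over the list was nonetheless lower in each low-Nr1d1 liver (-0.27, -0.20 and -0.12 around the mean of each gene) than in any high-Nr1d1 liver (0.08, 0.31 and 0.21), with Rgs16 among its members. Without overlap, 7 of 20 were lower and 1 was higher, beside 17.4% and 6.28% of all genes. Upp2, a uridine phosphorylase, read 10.39, 8.46 and 10.08 against 11.37, 11.58 and 11.17 and was 3.32-fold lower. Usp2, a ubiquitin protease, read 7.04, 6.78 and 6.51 against 8.18, 8.74 and 7.67 and was 2.67-fold lower. Upp2 was lowest in mutant 1, whereas Usp2 was not. Por, which passes electrons to all microsomal cytochromes P450, read 9.92, 10.90 and 9.82 against 11.22, 11.67 and 11.32 and was 2.29-fold lower. Tsc22d3, a glucocorticoid-induced leucine zipper gene, was 1.84-fold lower, Gys2, the liver glycogen synthase, 1.79-fold and Wee1, a cell cycle kinase, 1.70-fold, each without overlap.

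The 1 target that was higher without overlap was Ppard, a lipid-sensing nuclear receptor, at 7.10, 7.60 and 6.89 against 6.76, 6.79 and 6.60. Several classical rhythmic liver genes did not separate the groups. Alas1, the first enzyme of haem synthesis, read 9.92, 12.08 and 12.12 against 10.69, 11.63 and 12.31. Both groups spanned more than 1 log2 unit, with control 1 lowest, and its difference of -0.17 was smaller than the SD of either group (1.26 and 0.82, n = 3). All 3 mutants lay above all 3 controls, and within controls the difference was -1.24. Cyp7a1, the rate-limiting enzyme of bile acid synthesis, read 10.97, 9.42 and 10.03 against 8.92, 9.58 and 9.56, which overlapped, with a difference of 0.79 and control 1 above all other livers. Elovl3, a fatty acid elongase known as a REV-ERB-dependent rhythmic gene, was bright throughout (11.34 to 11.97) and overlapped with a difference of 0.25. Noct, Coq10b, Avpr1a, Insig2, Cdkn1a, Pnp, Tubb2a, Tfrc and Clpx also overlapped, with differences from -0.30 (Coq10b) to 0.66 (Tfrc, the transferrin receptor).

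**Figure D2:**
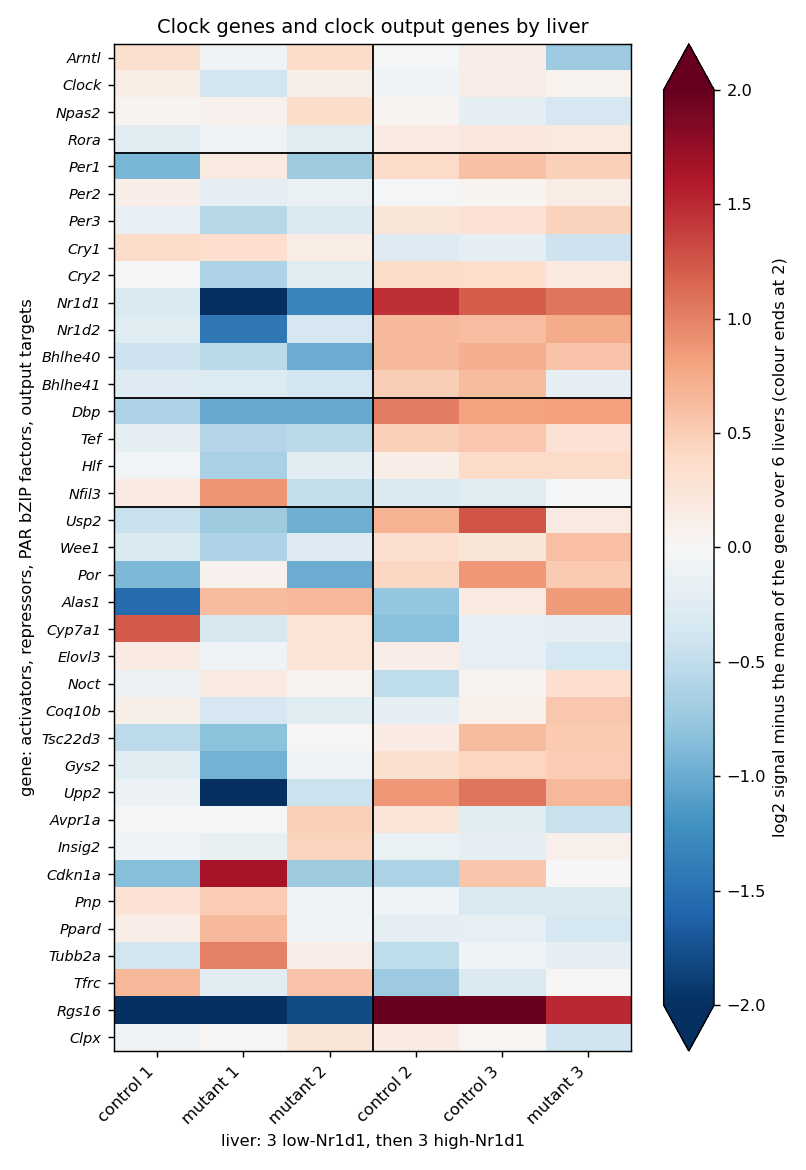
Log2 signal of each clock gene (rows, grouped as activators, repressors, PAR bZIP factors and output targets) minus its mean over the 6 livers (columns), with red above and blue below that mean and the colour ending at 2 log2 units. Nr1d1, Nr1d2, Bhlhe40, Dbp, Usp2, Upp2 and Rgs16 are blue in the 3 low-Nr1d1 livers and red in the others, Cry1 shows the opposite, and Arntl, Per2, Alas1 and Cyp7a1 do not follow the split.

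Of the genes that REV-ERB proteins are known to bind, 10 were measured, 4 with a difference below 0 and 6 above, with a median of 0.19 and a range of 0.063 to 0.33 over the alternatives. Npas2 and Cry1 were higher without overlap and Apoc3, an apolipoprotein, was lower without overlap by -0.22. The others overlapped: Arntl, Clock, Nfil3, Elovl3 and Insig2 as given above, G6pc, the last enzyme of glucose release (difference -0.15, with mutant 1 lowest at 10.68), and Fgf21, a fasting hormone (-0.10, and 0.05 on centring).

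Across all 14983 genes, 96 were at least 2-fold lower in the low-Nr1d1 livers without overlap (0.641%) and 25 were at least 2-fold higher (0.167%). The lower share of these genes, 79.3%, depended on the scaling: with arrays centred there were 64 lower (0.427%) and 50 higher genes (0.334%), so that 56.1% were lower, and after quantile normalization 68 (0.454%) and 50 (0.334%), so that 57.6% were lower. Of the 96, 41 passed 2-fold within controls and within mutants alike, and 64 were still 2-fold lower without mutant 1. Of the 25, 7 passed in both genotypes, and 16 were still 2-fold higher without mutant 1. Counted anew with 1 array left out, there were 166 lower and 53 higher genes without control 1, 178 and 53 without mutant 2, and 75 higher genes without mutant 3. The lower genes had a median signal of 8.13 over a median of 10 probe sets. The higher genes had 6.78 over 4 probe sets, 17 of 25 had at most 5 probe sets and 3 were olfactory receptor genes, beside 6.75 and 9 for all genes. The direction moved with signal over all genes, from a median difference of 0.04 under a signal of 5 to -0.17 at 9 and above, and the part of signal level in these counts was not tested.

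**Figure D3:**
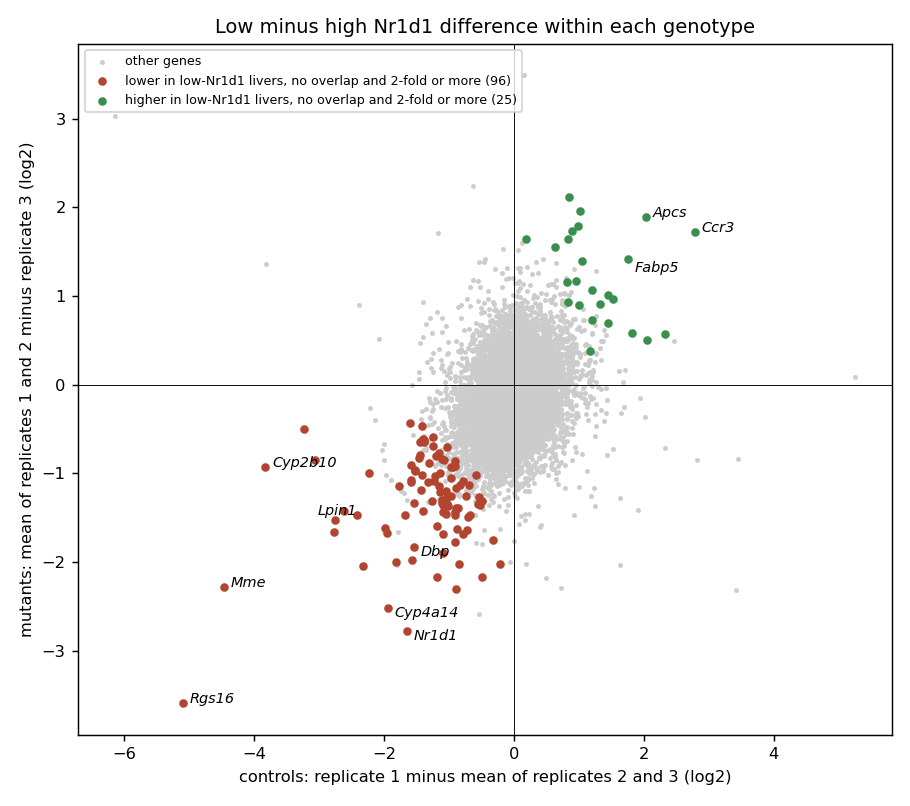
Each point is a gene, placed by the low minus high difference (log2) within controls (horizontal axis, control 1 minus the mean of controls 2 and 3) and within mutants (vertical axis, the mean of mutants 1 and 2 minus mutant 3). Red marks the 96 genes lower and green the 25 genes higher in low-Nr1d1 livers by 2-fold or more without overlap; Rgs16 lies farthest out at the lower left, and most other genes (grey) lie around 0.

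Besides Rgs16, Nr1d1 and Dbp, the genes with the largest lower signal in both genotypes included Mme, which encodes the peptidase neprilysin and read 5.07, 4.21 and 8.23 against 9.44, 9.63 and 8.51. The mean was 10.3-fold lower, but mutant 2 nearly reached mutant 3 and the low group was widely spread (SD 2.11, n = 3). The difference of -3.36 became -2.55 without mutant 1. Abcd2, a peroxisomal transporter of very long-chain acyl groups, read 5.13, 4.72 and 5.39 against 8.34, 7.46 and 6.72 and was 5.37-fold lower with the groups well apart. Lpin1, which encodes a phosphatidate phosphatase and coactivator induced in fasting, was bright in all livers and read 10.08, 10.76 and 10.30 against 12.25, 12.75 and 12.01, or 3.88-fold lower over 20 probe sets. Its groups were more than 1 log2 unit apart. Mfsd2a, a carrier of lysophospholipids that hepatocytes induce in fasting, read 7.92, 8.03 and 9.53 against 9.97, 10.52 and 10.82, or 3.86-fold lower. Spata2L was nearly level within the low group, with 7.59, 7.53 and 7.52 against 8.97, 9.36 and 9.499. Cd59a, a complement inhibitor at the cell surface, was 3.71-fold lower and Acss3, a mitochondrial acyl-CoA synthetase, 3.78-fold lower, each without overlap. Fam13a was 3.78-fold, Lrit2 3.62-fold and Lrit1 3.55-fold lower. Rps27, at 4.29-fold, rested on 2 probe sets and belongs to the ribosomal protein genes with near-identical copies, so that its signal is uncertain.

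Ranked by the smaller of the differences within controls and within mutants, the higher genes began with Apcs, the gene of serum amyloid P component, an acute phase protein of mice. Apcs read 8.94, 11.30 and 9.71 in the low-Nr1d1 livers and 6.59, 7.23 and 8.61 in the high-Nr1d1 livers. The mean was 5.68-fold higher, with mutant 1 far above the other livers and control 1 only just above mutant 3. Its difference was 2.51, and 1.85 without mutant 1. Fabp5, a fatty acid binding protein, read 7.47, 8.55 and 7.87 against 5.46, 5.96 and 6.79, or 3.72-fold higher. Tff3, a trefoil peptide, was 2.28-fold higher, and Dynll1, a dynein light chain, 2.84-fold higher. Ssr4, of the translocon, was 2.34-fold higher, Fkbp2, an isomerase of the endoplasmic reticulum, 2.07-fold, Ndufs6, of respiratory complex I, 2.24-fold and Rps20, which did not reach 2-fold, 1.88-fold. Rps20 read 10.86, 10.78 and 10.70 against 9.81, 9.96 and 9.84, with an SD of 0.08 in each group, but Rps20, Fabp5 and Dynll1 have near-identical copies that the probes may share. Ccr3, a chemokine receptor, was 5.70-fold higher over 2 probe sets, and Il13ra2, Olfr52, Tnp1, Trat1, Mboat2 and Olfr996 had mean signals under 6.

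Members of several metabolic lists had lower values in the low-Nr1d1 livers, but the cholesterol synthesis list did not (5 of 20 below 0, median 0.15). The counts below stand beside 9013 of all 14983 genes below 0 and 17.4% lower without overlap, or 26.9% at a signal of 7 to 9 and at 9 and above; since Nr1d1 made the groups, nothing is read from them. In the fasting and fatty acid oxidation list, 15 of 15 measured genes had a difference below 0 (12 on centring and 13 without mutant 1; median -0.63), and 7 did not overlap (46.7%). Cyp4a14, a fatty acid hydroxylase switched on by the receptor PPARA, read 9.15, 8.42 and 10.02 against 10.67, 11.51 and 11.73 and was 4.31-fold lower. Acot1, a cytosolic acyl-CoA thioesterase, read 8.32, 7.01 and 7.85 against 8.79, 9.30 and 9.07 and was 2.51-fold lower. Cyp4a10 was 2.24-fold and Ehhadh, of peroxisomal oxidation, 1.80-fold lower without overlap, and the probe sets of Cyp4a10 and Cyp4a14 read close relatives. Without mutant 2 the list's median was -0.99.

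Of 18 fatty acid synthesis genes 15 had a difference below 0 (median -0.47, and -0.32 without mutant 1), 8 lower (44.4%) and 1 higher without overlap. Thrsp, a gene induced by carbohydrate and thyroid hormone, read 9.02, 9.46 and 9.35 against 10.40, 10.55 and 10.23 and was 2.17-fold lower. Pklr, the liver pyruvate kinase, was 1.92-fold lower, Acaca, the first committed enzyme of the pathway, 1.60-fold and Srebf1, its transcription factor, 1.48-fold. All 12 measured genes of glycogen and glucose handling had a difference below 0 (11 without mutant 1; median -0.57), and 7 did not overlap (58.3%). Ppp1r3b, which targets phosphatase to glycogen, read 8.33, 7.70 and 8.16 against 9.49, 9.44 and 9.14 and was 2.45-fold lower. Slc2a2, the glucose transporter of hepatocytes, was 1.83-fold lower with mutant 1 lowest at 10.49, and Pck1, of glucose synthesis, was 1.51-fold lower.

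Of 22 measured genes of xenobiotic metabolism, 20 had a difference below 0 (median -0.40), and 11 did not overlap, all lower. Cyp2b10, the classical target of the receptor CAR, read 6.63, 7.41 and 6.40 against 10.15, 10.77 and 7.84 and was 6.83-fold lower. The gap between mutant 1 and mutant 3 was small, and the difference was -3.83 within controls and -0.93 within mutants. Cyp2c37 read 11.15, 9.67 and 9.03 against 11.74, 12.25 and 11.37 and was 3.58-fold lower, and Gstt3, a glutathione transferase, was 2.58-fold lower. Both P450 genes belong to families of close relatives. In amino acid and urea metabolism 15 of 17 genes had a difference below 0 (median -0.35), and 10 were lower without overlap (58.8%). Got1, an aspartate aminotransferase, was 2.19-fold lower (11.32, 10.70 and 11.58 against 12.34, 12.70 and 11.94), Gpt 1.64-fold, Asl, of the urea cycle, 1.61-fold and Gnmt, a glycine methyltransferase, 1.52-fold. In bile acid synthesis 8 of 11 genes had a difference below 0 (median -0.33, but -0.17 without mutant 1, -0.14 without mutant 3 and -0.014 within controls). In 2 of the 11 (18.2%) the groups were separate, Acox2 (1.74-fold lower) and Cyp27a1 (1.11-fold lower).

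**Figure D4:**
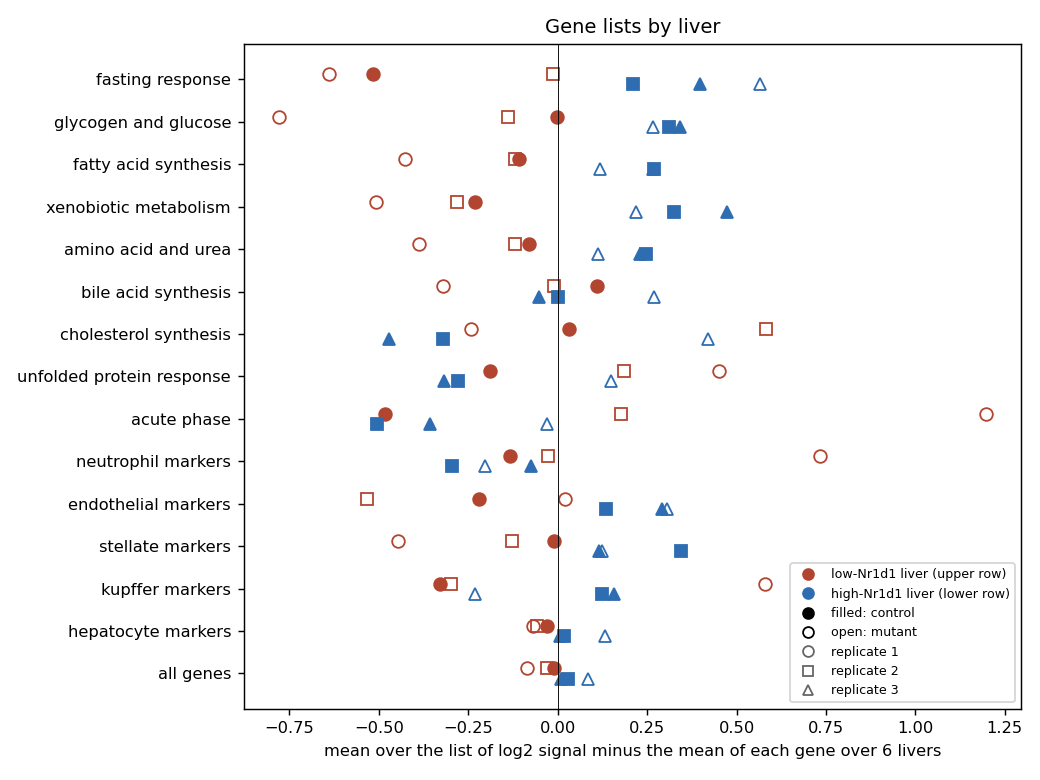
Mean over the measured genes of each list (rows) of the log2 signal minus the mean of each gene over the 6 livers (horizontal axis), for each low-Nr1d1 liver (red) and high-Nr1d1 liver (blue), with controls filled and mutants open. The fasting, glycogen, fatty acid synthesis, xenobiotic and amino acid lists separate the groups, and so do the endothelial, stellate and hepatocyte lists. The mean over all genes separates them too (-0.08 to -0.01 against 0.01 to 0.09). Acute phase and neutrophil lists are highest in mutant 1, and the acute phase list is higher in every mutant than in any control. The hepatocyte markers lie near 0.

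Some markers of other cell types differed with the split. All 9 endothelial markers had a difference below 0 (7 on centring; median -0.50), and 4 did not overlap (44.4%, beside 17.4% of all genes): Oit3 (1.65-fold lower), Pecam1 (1.43-fold), Cdh5 (1.42-fold) and Stab2 (1.26-fold). The log2 of the summed linear signal of the list ran from 11.74 to 12.50 in the low-Nr1d1 livers and from 12.28 to 12.45 in the high-Nr1d1 livers, with mutant 1 highest and mutant 2 lowest. Clec4g, the brightest member, read 11.58 in mutant 1 against 10.12 to 10.81 elsewhere. Lyve1 (8.42) was highest in mutant 1 too, whereas Kdr (8.39) and Stab2 (8.88) were lowest there. Of 9 markers of stellate cells, which store vitamin A, 7 had a difference below 0 (median -0.24), and on centring 5 did (median -0.098). Lrat, which esterifies that vitamin, was 2.19-fold lower, Reln 2.04-fold and Acta2 1.30-fold, each without overlap. The other members overlapped, Des and Col1a1 with a difference above 0. The summed signal ran from 10.86 to 11.93 against 11.95 to 12.30, a gap smaller than the range of the array medians. Dcn, the brightest member of that sum, read 11.40, 9.97 and 11.14 against 11.72, 11.78 and 11.34. In bulk liver, fewer cells of a type and less RNA per cell cannot be told apart. Hepatocyte markers differed little, with 5 of 6 below 0, a median of -0.10 that was 0.04 on centring, and summed signals of 15.86 to 15.91 against 15.89 to 16.05; Cyp2e1, 1.31-fold lower, was the one without overlap.

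By list means, Kupffer cell markers (6 of 10 below 0, median -0.13, and -0.38 without mutant 1) and neutrophil markers (8 of 9 above 0, median 0.24, and 0.090 without mutant 1) stood highest in mutant 1. The summed Kupffer signal was 12.40 in mutant 1 against 11.29 to 11.84 in the other 5 livers, and the summed neutrophil signal was 9.28 against 8.11 to 8.56. Cd5l, the brightest Kupffer marker, read 10.73 in mutant 1. Vsig4, Adgre1 and Csf1r were not highest there, at 8.73, 7.81 and 8.56 against 8.96, 8.04 and 8.83 in control 3. The neutrophil markers were dim, with mean signals from 4.22 (S100a9) to 6.46 (Prtn3), under the median of 6.75 over all genes. Camp (5.34 in mutant 1, 6.04 in control 3) and Ltf (5.06 in mutant 1, 5.08 in mutant 2) were not highest in mutant 1. S100a8, a neutrophil granule gene, read 5.02, 6.78 and 4.64 against 4.27, 4.62 and 4.58, with mutant 2 only just above the high group. Acute phase genes were likewise highest in mutant 1: 17 of 18 had a difference above 0, with a median of 0.24 that was 0.07 without mutant 1 and -0.09 within controls. By list means they followed genotype, from -0.50 to -0.36 in the 3 controls and from -0.03 to 1.20 in the 3 mutants. Besides Apcs, Orm1 (1.52-fold) and Cp (1.11-fold) were higher without overlap, where 6.28% of all genes were. Lymphocyte (6 of 10 below 0, median -0.03, 0.11 on centring), bile duct (4 of 6 above 0, median 0.13, and -0.039 without mutant 1), adipocyte (4 of 7 above 0, median 0.11), erythroid (1 of 2 above 0, median 0.03) and pancreas (4 of 4 above 0, median 0.07) markers had no member lower or higher without overlap apart from lymphocyte Cd3d (1.49-fold higher), Cd8a (1.23-fold higher) and Ms4a1 (1.27-fold lower). The summed bile duct signal was 10.57 in mutant 1, above the other 5 livers, of which control 3 was lowest at 8.95. Spp1, the brightest member, read 10.09 in mutant 1 against 7.43 to 8.50 elsewhere, and Sox9 read 7.85 against 7.08 to 7.46. Krt19, Krt7, Epcam and Cftr stayed between 3.44 and 6.23 in all livers, with Cftr lowest in mutant 1. The part of these cell types in the differences above was not tested.

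The low minus high difference could be compared between genotypes, since each genotype held livers of both groups. For Nr1d1 it was -1.65 within controls and -2.78 within mutants, for Dbp -1.53 and -1.84, and for Rgs16 -5.09 and -3.59. In limma none of the 14983 genes had a difference that differed between genotypes at an adjusted p under 0.05 (0%), with 450 at an unadjusted p under 0.05 and 453 when the moderation followed signal, which also called 0. The smallest adjusted p was 0.705. A count of 0 here does not show that the differences were alike in both genotypes, and Nr1d1, which made the groups, is among the genes. This fit has 1 array in control low and 1 in mutant high, which are assumed to vary like the others. Without mutant 1 or mutant 2 the spread within groups came from controls 2 and 3 alone. The count of calls changed there and is not read. Genotype itself, which did not choose the groups, was tested with the split held fixed. The call was Zfp874a alone (0.00667% of genes), a zinc finger gene at 8.17, 8.51 and 8.76 in controls 1 to 3 and 6.21, 6.16 and 6.29 in mutants 1 to 3, with no overlap. Its genotype difference was -2.17 (SE 0.16) with the split in the model (adjusted p = 0.0465 in limma, with 564 genes at an unadjusted p under 0.05), and -2.26 (SE 0.18) without it (adjusted p = 0.0182, with 610). The call with the split was lost on centring (adjusted p = 0.05001) and after quantile normalization (0.0522), and there were 0 calls without control 1, 2 or 3 or mutant 3 and 3 calls without mutant 1. Without the split in the model there were 3 calls without control 1 and 0 without control 2, control 3, mutant 1 or mutant 3. Without mutant 2 each fit made 1 call, Serpina1d, a gene of a family of near-identical protease inhibitors, in place of Zfp874a. No clock or clock output gene was among the calls of either fit.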

How the data were processed

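Per the labels' protocols, Trizol-extracted RNA of 6 livers was converted to cDNA, amplified and biotinylated for exon arrays. The authors deposited log2 signals, 1 for each of 204531 probe sets per array. The submitters' processing notes name Affymetrix Expression Console 1.1, RMA, Partek 6.4 and build mm9. RMA brings arrays to a common distribution and compresses differences of dim probe sets. The platform annotation gave 185264 probe sets 1 gene symbol, 3488 several and 15779 none. Of 16139 symbols, 13995 were current in RefSeq, 2104 were updated and 40 were not matched.

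Gene values were means over the probe sets of a gene with a mean signal of 3 or more over all arrays, at least 2 of them (14983 genes). Low and high livers were described by differences and overlap, without tests, since a measured gene made the groups. A gene was counted where the groups did not overlap and differed by 1 log2 unit or more. Genotype and its interaction with the split were tested with limma 3.58.1 in R 4.3.3, with Benjamini-Hochberg adjustment over all genes and a threshold of 0.05. Nothing in the labels says more of the samples than a number within each group, so p-values measure the spread between these samples, and 6 arrays limit the precision. The fits and counts were tested on simulated data.

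The groups, 30 gene lists and the naming rule were chosen with earlier results of these data known. Named were all 53 measured clock and output genes, the 15 lower and 15 higher genes without overlap whose smaller difference over the genotypes was largest, up to 4 non-overlapping members of largest difference per other list, Thra and Dhx32. Predicted genes were passed over.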

Additional observations from a re-analysis of the deposited data

How the results depend on the processing

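For 132 named genes 1579 values were recomputed, of which 1532 moved by less than 1 SD and 47 by more. The 43 named genes that were 2-fold apart without overlap kept their sign. Leaving out 1 array cannot change the sign where groups do not overlap, so nothing is read from this. Another 12 genes, all with overlapping groups, changed sign in 33 of these values. Of 360 list medians 324 moved by less than 1 SD. Counts of genes at least 2-fold apart without overlap depended on the settings. The higher genes numbered 45 with the median over probe sets in place of the mean and 50 after quantile normalization or centring, and with a difference of 0.5 or more 913 genes were lower and 215 higher. Leaving out 1 array gave 93 to 178 lower genes and 26 to 75 higher genes, with 166 and 53 without control 1, 178 and 53 without mutant 2 and 75 higher without mutant 3. Quantile normalization and centring moved the list medians of the PAR bZIP factors (-0.59 and -0.60), output targets (0.22 and 0.21) and REV-ERB-bound genes (0.29 and 0.33), and centring those of xenobiotic (-0.25) and amino acid genes (-0.20). Leaving out 1 array moved the medians of output targets between -0.20 and 0.21 (-0.11 with genotype held fixed), of amino acid genes between -0.49 and -0.27, clock modifiers between -0.27 and -0.064, REV-ERB-bound genes between 0.063 and 0.30, fatty acid synthesis between -0.55 and -0.32, fasting genes between -0.99 and -0.63 and repressors between -0.86 and -0.63. Genotype calls without the split were 0 with no signal minimum, 2 after quantile normalization or centring and 0 to 3 with 1 array left out. With the split they were 0 with no minimum, quantile normalization or centring, and 0 to 3 with 1 array left out. The interaction calls were 0 to 124 with 1 array left out, and it could not be fitted without control 1 or mutant 3. Replicate numbers did not pair the livers (correlations of deviations 0.01, -0.11 and 0.12), and with a replicate block there was 1 genotype call in each fit, Zfp874a without the split and Serpina1d with it, while the interaction could not be fitted. Causes of these moves were not tested.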

Other observations

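In the unfolded protein response list, 21 of 23 measured members had a difference above 0, with a median of 0.37 (7 were below 0 without mutant 1). In 3 of them the low-Nr1d1 livers were higher without overlap, beside 6.28% of all genes. Hsp90b1, a chaperone of secreted proteins, read 12.20, 12.35 and 12.54 in control 1, mutant 1 and mutant 2 against 11.88, 11.90 and 11.93 in control 2, control 3 and mutant 3. Dnajb11, a cochaperone, was 1.51-fold and Calr, a calcium-binding chaperone, 1.25-fold higher. Trib3, a pseudokinase of the stress response, was the one gene lower without overlap (1.62-fold). By list means the low and high livers overlapped, and the list followed genotype, with means from -0.32 to -0.19 in the 3 controls and from 0.15 to 0.45 in the 3 mutants. Among genes of the heat and cold response, 8 of 15 were above 0 (median 0.11), and the cytosolic chaperones Hsp90aa1 (1.42-fold) and Hspa8 (1.34-fold) were higher without overlap.

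Cholesterol synthesis genes did not separate the groups: 15 of 20 were above 0 with a median of 0.15 (0.33 without mutant 1), the median was 0.36 within controls and -0.30 within mutants, and in none did the groups fail to overlap. The list means were highest in mutant 2 (0.58) and mutant 3 (0.42), 1 liver of each group. Glucocorticoid-responsive genes (7 of 11 below 0, median -0.18) had a median of -0.69 without mutant 1, 0.026 without control 1 and 0.16 without mutant 2, and ran from a list mean of -0.73 in mutant 2 to 0.93 in mutant 1. Of 12 growth hormone responsive genes 8 were above 0 (median 0.06, and 0.20 without mutant 1), where Cish (2.11-fold) and Socs3 (1.62-fold), feedback inhibitors of cytokine signalling, were higher and Stat5b (1.23-fold) was lower without overlap. Immediate early genes had a median of -0.01 (0.13 on centring, -0.26 without mutant 1), with Zfp36 (1.57-fold), Klf6 (1.496-fold) and Egr1 (1.37-fold) lower without overlap. Cell cycle genes had a median of -0.12 (0.02 on centring). Without overlap 4 of 18 were lower (22.2%) and 1 was higher, beside 17.4% and 6.28% of all genes. The lower ones included Pcna (1.69-fold), Birc5 (1.64-fold) and Mcm2 (1.29-fold), and the higher one was Ccne1 (1.27-fold).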
